A study of Mus musculus with 9 samples.

Results

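The genes described here encode the nuclear subunits of the 5 oxidative phosphorylation (OXPHOS) complexes, read in colon macrophages of mice that lack a subunit of the phagocyte NADPH oxidase and of wild-type mice. Members were the rows whose symbols begin with Ndufa, Ndufb, Ndufc, Ndufs or Ndufv and a number, with Uqcr, with Cox and a digit of 4 to 8 or with Atp5, together with Sdha to Sdhd and Cyc1. Of 96 rows matched by name in a table of 42454 genes, 79 had at least 10 normalized counts in at least 3 of the 9 libraries and were taken as members. Complex I had 35 members, complex II 4, complex III 9, complex IV 14 and complex V 17. Ndufb1-ps, counted in complex I by its name, is annotated as a long non-coding RNA and not as protein coding (GENCODE M21). The cells came from 6-week-old mice and were sorted as macrophages with little Ly6C and with MHC class II on their surface. Their source was the lamina propria of the colon, a layer of connective tissue beneath the epithelium. Their genotypes were gp91phox-/-, p47phox-/- and WT, with 3 libraries each, and no treatment was given in the labels. gp91phox, the product of Cybb, is the membrane-bound catalytic subunit of the oxidase, and p47phox, the product of Ncf1, is a cytosolic subunit that organises its assembly. No label ties a library to an animal, so the spread behind each p-value is that between libraries and may be partly technical.

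Oxidative phosphorylation takes place in the inner mitochondrial membrane. Complexes I (NADH dehydrogenase) and II (succinate dehydrogenase) pass electrons to ubiquinone, complex III passes them to cytochrome c, complex IV reduces oxygen to water, and complex V makes ATP from the proton gradient that complexes I, III and IV build. Most subunits are encoded in the nucleus and a few in the mitochondrial genome. Complexes I and III are also known as sources of mitochondrial superoxide, separate from the superoxide made by the NADPH oxidase, and macrophages are known to shift between oxidative phosphorylation and glycolysis as they are activated.

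The libraries held 31141107 to 52797368 reads on genes, of which the members took 0.422 to 0.581%. Replicates 2 and 3 of the p47phox-/- group had at least 1 read on 14323 and 14268 genes, against 15825 to 18760 in the other 7 libraries. Ncf1 stood at 2718, 3733 and 3133 normalized counts in p47phox-/- libraries, against 10070, 8990 and 10820 in WT libraries. Cybb was listed at 0 in every library, as were all 1362 genes of the X chromosome, so the gp91phox-/- label could not be checked on its target. All 17 macrophage markers (among them Csf1r, Adgre1, Cd68, Mertk and C1qa) were above 0 in every library, with summed levels of 1661000 to 2029000 normalized counts in gp91phox-/-, 1503000 to 2113000 in p47phox-/- and 1447000 to 1913000 in WT libraries. The 12 B cell markers summed to 3325 to 3941 normalized counts in gp91phox-/- libraries, 14970 to 23570 in p47phox-/- libraries and 16240 to 27410 in WT libraries, and 3 of them (Cr2, Ms4a1 and Pax5) were at 0 in gp91phox-/- replicate 1. The 14 fibroblast and smooth muscle markers summed to 10800 to 13010, 13070 to 20020 and 7587 to 10150 normalized counts in gp91phox-/-, p47phox-/- and WT libraries, with none at 0. In sorted bulk RNA, fewer cells of a type and less RNA per cell cannot be told apart, and the part of these other cells in the results on the members was not tested.

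All 5 complexes were expressed in WT macrophages, with the levels of complexes IV and V above those of complex I. Per kilobase of transcript (the shortest principal transcript of each gene), the WT level had a median of 2860 normalized counts per kb in complex IV, 2445 in complex V, 1587 in complex III, 1494 in complex II and 959.3 in complex I. Atp5b and Cox4i1 had the highest WT levels, at 8639 and 8409 normalized counts per kb. Atp5b encodes the beta subunit that holds the catalytic sites of ATP synthase, and Cox4i1 the common form of the nuclear subunit that regulates cytochrome c oxidase. Ndufb4, an accessory subunit of complex I, was lowest in its complex at 147.2 normalized counts per kb. At the low end of complex IV lay Cox6a2, Cox4i2 and Cox7a1, forms known from heart, muscle or lung, which were the 3 members with a WT mean under 100 normalized counts. Replicates of the WT group differed little, with a median coefficient of variation of 11.1% over the members, and those of the gp91phox-/- group had 10.1%. In the p47phox-/- group it was 22.7%.

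**Figure D1:**
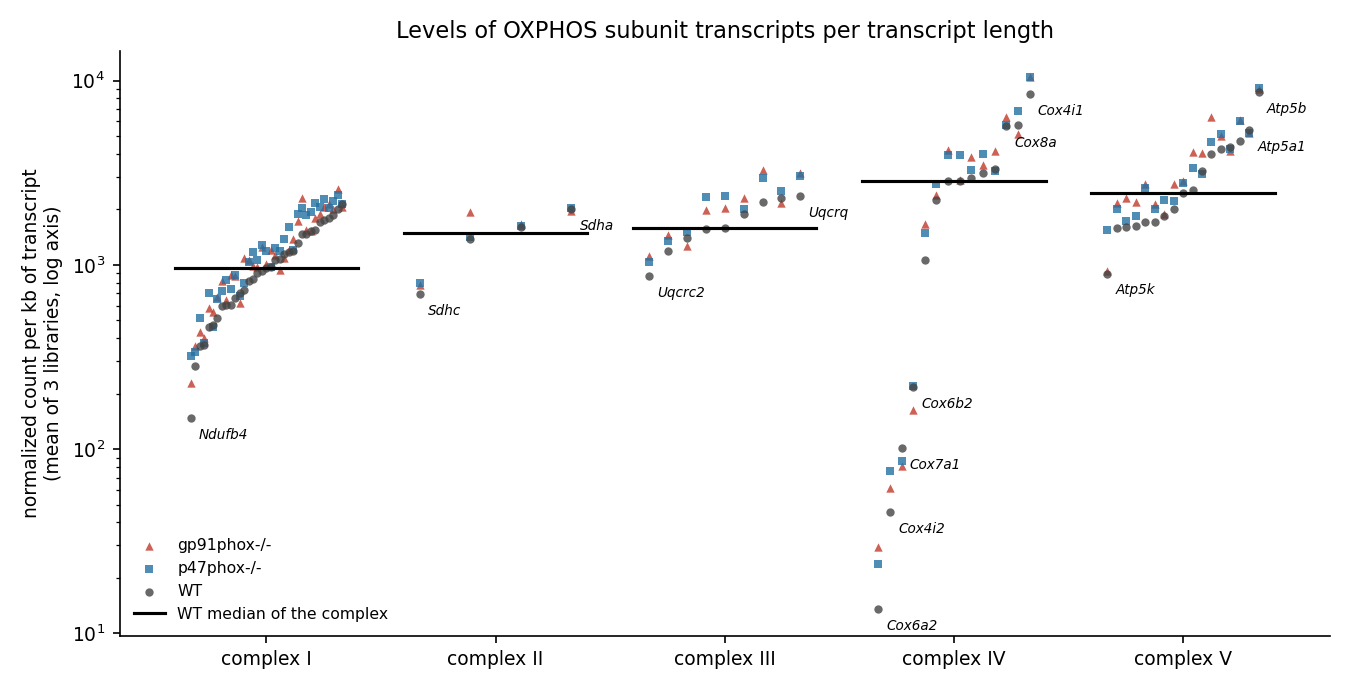
Level of each of the 79 members as mean normalized count per kb of transcript (log axis), by complex, ordered by the WT level within each complex. Triangles, squares and circles are means of 3 gp91phox-/-, p47phox-/- and WT libraries, and the line is the WT median of the complex, highest in complex IV (2860) and lowest in complex I (959.3).

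In gp91phox-/- macrophages the members lay slightly above WT by their median, though not in every library, and 2 of them rose past the threshold. Of 79 members, 66 had a log2 fold change above 0, with a median of 0.27, against 50.6% of all 14404 tested genes and a median of 0.006. Ndufb3 and Atp5pb rose, and 0 members fell (limma, adjusted p under 0.05 over all tested genes). Those 2 are 2.53% of the members, and 2.53% of all tested genes were called higher and 4.53% lower, so the number of calls is that of the background. Libraries of the genotypes did not overlap for more members: in 27 (34.2%) all 3 gp91phox-/- libraries lay above all 3 WT libraries, against 15.1% of all tested genes, and in 1 (Cox6b2) all lay below, against 18.2%. An unadjusted limma p under 0.05 was reached by 17 of 79 members and by 3127 of 14404 tested genes. By complex, the median log2 fold change was 0.24 for complex I, 0.11 for complex II, 0.36 for complex III, 0.23 for complex IV and 0.33 for complex V. The median over members stayed between 0.18 and 0.34 when each library was left out in turn, lowest without WT replicate 3. By library, the members deviated from the WT mean by a median log2 value of 0.13, 0.34 and 0.33 in gp91phox-/- replicates 1, 2 and 3. In WT replicates these medians were 0.03, 0.13 and -0.14, so gp91phox-/- replicate 1 and WT replicate 2 were both at 0.13. Of the 79 members, 56 lay above the WT mean in gp91phox-/- replicate 1 and 68 in WT replicate 2.

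**Figure D2:**
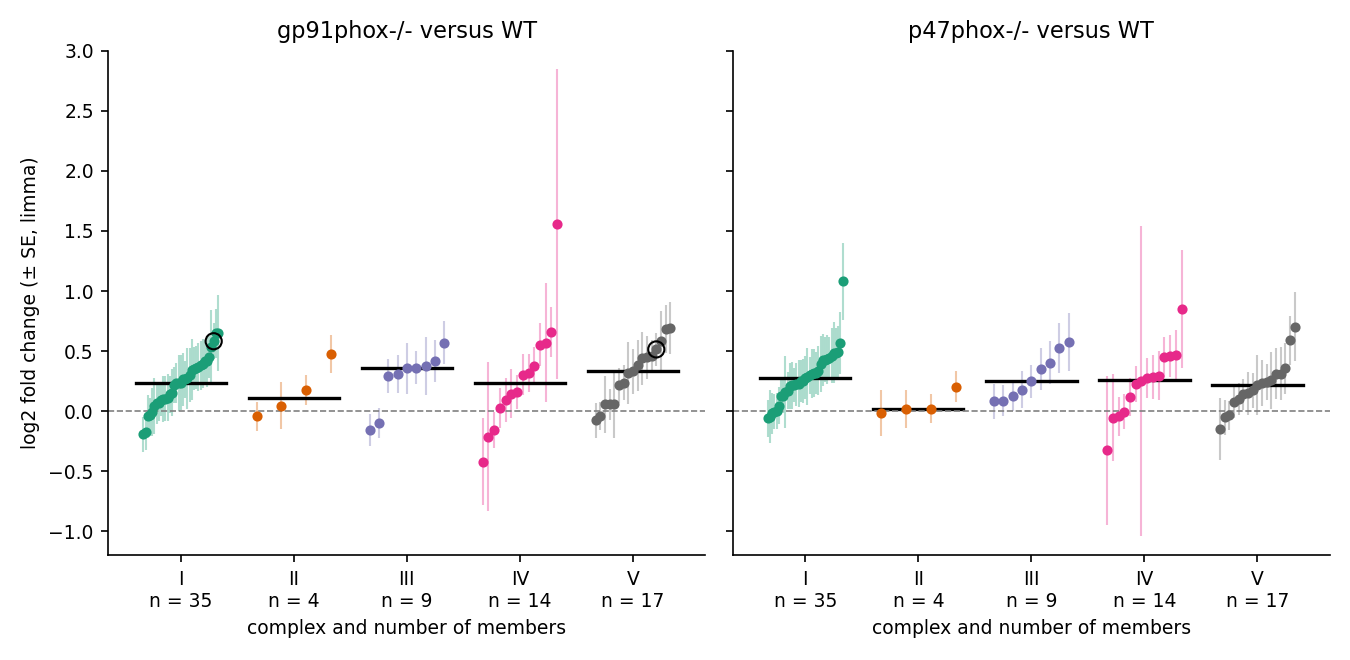
Log2 fold change of each member (± SE from limma) in gp91phox-/- versus WT (left) and p47phox-/- versus WT (right), by complex, in rising order. Black lines are medians of a complex, and the 2 circled points are the called members Ndufb3 (0.58) and Atp5pb (0.51).

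Ndufb3 encodes a small accessory subunit in the membrane arm of complex I, and its gene lies on chromosome 1. It had 730.6, 865.2 and 900.8 normalized counts in gp91phox-/- libraries, 594.2, 601.4 and 618.3 in p47phox-/- libraries and 582.5, 512.5 and 567.8 in WT libraries. All 3 gp91phox-/- libraries stood above the other 6. Ndufb3 averaged 832.2 ± 89.7 normalized counts in gp91phox-/- libraries and 554.3 ± 36.9 in WT libraries (SD, n = 3 each), a log2 fold change of 0.58 ± 0.15 (SE, limma adjusted p = 0.0378). Atp5pb, on chromosome 3, encodes subunit b of the peripheral stalk, which holds the catalytic head of ATP synthase still against the rotor. It had 3255, 3896 and 3908 normalized counts in gp91phox-/- libraries, 2625, 3185 and 2514 in p47phox-/- libraries and 2527, 2793 and 2408 in WT libraries. Here too the 3 gp91phox-/- libraries were the highest of the 9. Atp5pb averaged 3686 ± 374 normalized counts in gp91phox-/- libraries and 2576 ± 197 in WT libraries (SD, n = 3 each), a log2 fold change of 0.51 ± 0.14 (SE, limma adjusted p = 0.0406). Both calls are near the threshold: each was lost without gp91phox-/- replicate 2 or 3 or without any 1 of the WT replicates (adjusted p of 0.061 to 0.161). Atp5pb was also at 0.0501 without p47phox-/- replicate 3. Without p47phox-/- replicate 2, which enters this comparison only through the shared spread, 11 members were called higher. So were 622 of all 14404 tested genes, against 364 with all libraries.

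Promoter sequence is shown for the 2 called members and for 3 members whose windows held both of the motifs best known from OXPHOS genes. The nuclear respiratory factor NRF1 and the ETS factor GABPA are textbook regulators of these genes, and YY1 is a further factor known at such promoters. Each stretch runs from 100 bases before to 20 bases after the RefSeq start site (GRCm38.p6), 5′ to 3′ on the gene's strand. Capitals mark matches on either strand to the NRF1 core (GCATGCGC), the ETS motif (CCGGAAG), the CCAAT box (CCAAT) or the YY1 motif (GCCATNTT).
Ndufb3, chr1:58586297-58586416, plus strand: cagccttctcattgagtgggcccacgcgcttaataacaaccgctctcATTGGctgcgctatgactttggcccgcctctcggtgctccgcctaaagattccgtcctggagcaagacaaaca
Atp5pb, chr3:105959244-105959363, minus strand: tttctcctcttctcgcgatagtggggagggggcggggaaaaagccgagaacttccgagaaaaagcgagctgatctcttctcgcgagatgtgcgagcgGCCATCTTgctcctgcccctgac
Uqcr11, chr10:80406802-80406921, minus strand: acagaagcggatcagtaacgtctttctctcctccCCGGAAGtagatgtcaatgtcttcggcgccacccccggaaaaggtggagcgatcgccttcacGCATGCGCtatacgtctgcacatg
Sdhb, chr4:140961171-140961290, plus strand: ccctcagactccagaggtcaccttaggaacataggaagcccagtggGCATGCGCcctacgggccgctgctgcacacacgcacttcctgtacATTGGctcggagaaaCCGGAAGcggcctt
Atp5k, chr5:108434380-108434499, minus strand: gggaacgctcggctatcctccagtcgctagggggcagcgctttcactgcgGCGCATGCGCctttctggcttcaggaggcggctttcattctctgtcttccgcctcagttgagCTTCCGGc

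In the window of Ndufb3 the capitals are a CCAAT box read on the other strand, and in that of Atp5pb a YY1 motif that spans the start site. Uqcr11 and Atp5k hold the NRF1 core and the ETS motif, and Sdhb holds both with a CCAAT box. RefSeq windows of 250 bases before to 50 after the start were found for 63 of the 79 members and for 10932 tested genes. A gene was counted as holding a motif if any of its windows held it. The shares over all promoters are of 32851 windows instead, where a gene with several windows counts more than once. The NRF1 core was in the windows of 10 of 63 members (15.9%) and of 5.5% of tested genes, and in 2.71% of all windows. The YY1 motif was in 15 members (23.8%), 9.43% of tested genes and 6.05% of all windows. For the ETS motif the shares were 27% (17 members), 18.8% of tested genes and 8.86% of all windows. Both the NRF1 core and the ETS motif were held by 5 members (Atp5k, Atp5l, Cox6a1, Sdhb and Uqcr11). This is 7.94%, against 1.26% of tested genes and 0.521% of all windows. The cAMP response element (TGACGTCA) was in 4 members (6.35%, against 3.41% of tested genes). The CCAAT box was in 27 members (42.9%, against 41.8% of tested genes) and the TATA box (TATAAA) in 6 (9.52%, against 9.3%). These shares are descriptions of letters in a window and carry no test. None of the 5 genes with both motifs was called versus WT in either knockout. Their log2 fold changes in gp91phox-/- versus WT were 0.06 for Atp5k, 0.69 for Atp5l, -0.15 for Cox6a1, 0.05 for Sdhb and 0.38 for Uqcr11. In p47phox-/- versus WT they were 0.70, 0.59, 0.23, -0.02 and 0.57 in the same order.

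In complex I, Ndufs1 and Ndufv1, redox-centre subunits of the matrix arm, overlapped with WT. Ndufs1, the largest iron-sulfur subunit, had 1378, 1713 and 1210 normalized counts in gp91phox-/- libraries and 1240, 1346 and 1058 in WT libraries (log2 fold change 0.23, adjusted p = 0.479). Ndufv1, which holds the flavin that accepts electrons from NADH, was the lowest of the complex at a log2 fold change of -0.19 (adjusted p = 0.493), with 1562, 1444 and 1687 against 1845, 1921 and 1605 normalized counts. Ndufv2, another redox-centre subunit of the same arm, did not overlap, with 960.8, 1326 and 1128 normalized counts in gp91phox-/- libraries and 921.5, 947.2 and 768.1 in WT libraries (log2 fold change 0.37, adjusted p = 0.328), and was not called. Ndufb4 had the highest fold change of the complex, 187.4, 256.4 and 220.1 normalized counts in gp91phox-/- libraries against 111.9, 188 and 128.9 in WT libraries (0.65, adjusted p = 0.266), and overlapped by a narrow margin. Ndufa4 carries a complex I name, though its protein is now assigned to complex IV, and had 976.3, 1240 and 1289 normalized counts in gp91phox-/- and 865.9, 988.3 and 876.9 in WT libraries (0.35, adjusted p = 0.284).

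Among the 4 subunits of succinate dehydrogenase the membrane anchor Sdhd had the highest fold change. It had 2150, 2473 and 2494 normalized counts in gp91phox-/- libraries, against 1804, 1592 and 1708 in WT libraries, a log2 fold change of 0.48 ± 0.16 (SE, limma adjusted p = 0.0943) with no overlap. Sdha, the flavoprotein that oxidises succinate, was level at 5775, 5579 and 5626 in gp91phox-/- and 5150, 6384 and 6015 in WT libraries (-0.04, adjusted p = 0.894). The iron-sulfur subunit Sdhb (0.05, adjusted p = 0.931) and the other anchor Sdhc (0.17, adjusted p = 0.482) overlapped between genotypes. In complex III, 5 of 9 members had gp91phox-/- libraries wholly above WT, against 34.2% of all 79 members and 15.1% of all tested genes. The highest was Uqcrh, the hinge protein that contacts cytochrome c1, with 1582, 2039 and 1725 normalized counts in gp91phox-/- libraries and 1164, 1206 and 1212 in WT libraries (0.57, adjusted p = 0.083). Of its redox subunits, Cyc1 (cytochrome c1) was the lowest at -0.16 (adjusted p = 0.547), with 1807, 1924 and 2020 against 2274, 2143 and 1996 normalized counts, and the Rieske protein Uqcrfs1 had 0.31 (adjusted p = 0.278). Uqcrc1, a core protein of the matrix side, had -0.10 (adjusted p = 0.718).

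In complex IV, whose catalytic subunits are all made in the mitochondrion, Cox7a2 and Cox6b1 were highest among the well expressed members. Cox7a2, the form found in most tissues, had 969, 1087 and 1244 normalized counts in gp91phox-/- libraries and 740.8, 803.3 and 557.8 in WT libraries (0.66, adjusted p = 0.0861). Cox6b1, which joins the 2 monomers of the dimer, had 2270, 2672 and 2806 against 1955, 1882 and 1462 (0.55, adjusted p = 0.0861). Cox4i1 had 7055, 8318 and 7898 in gp91phox-/- libraries against 6246, 6445 and 6103 in WT libraries (0.30, adjusted p = 0.323). Genotypes did not overlap for these 3 members. Nor did they for Cox7a2l, which links complexes III and IV (0.38, adjusted p = 0.194), and Cox8a (0.16, adjusted p = 0.582). Cox5a (0.32, adjusted p = 0.284) and Cox6a1 (-0.15, adjusted p = 0.618) overlapped between genotypes.

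In complex V the catalytic head subunits Atp5a1 and Atp5b were level, while several smaller subunits lay above WT. Atp5a1 had 12526, 12668 and 13339 normalized counts in gp91phox-/- libraries and 12913, 14696 and 12135 in WT libraries (-0.04, adjusted p = 0.895). Atp5b had 16081, 18844 and 16707 against 15430, 18701 and 15523 (0.06, adjusted p = 0.852). Atp5d, the delta subunit of the central stalk, was lowest at -0.08 (adjusted p = 0.823). Atp5e, the epsilon subunit beside it, was highest, with 1427, 1863 and 1912 normalized counts in gp91phox-/- libraries and 1075, 1228 and 908.9 in WT libraries (0.69, adjusted p = 0.0763). The gamma subunit Atp5c1, the rotating shaft, had 3146, 3203 and 3261 against 2245, 2620 and 2141 (0.46, adjusted p = 0.0541), a gap wide of the spread within either genotype though short of the threshold. The catalytic or redox-centre subunits (13 genes, chosen with their values known, among them Ndufs1, Ndufv1, Sdha, Sdhb, Cyc1, Uqcrfs1, Atp5a1 and Atp5b) had a median log2 fold change of 0.05 in gp91phox-/- versus WT, and the other 66 members 0.32. The median transcript was 1623 bases long among these 13 and 659 bases among the others, with which the anchors Sdhc and Sdhd were counted.

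**Figure D3:**
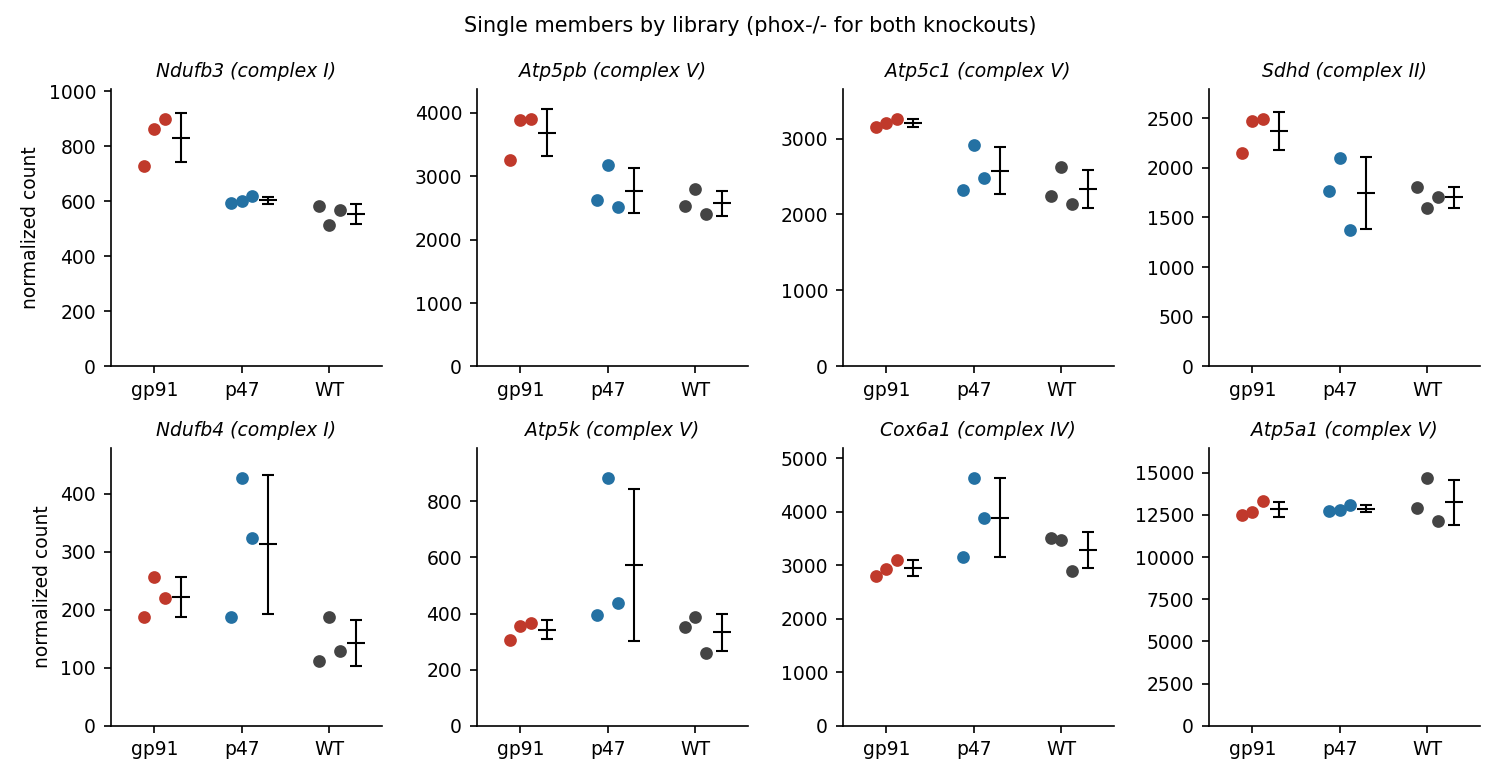
Normalized counts of 8 members in each of the 3 gp91phox-/- (red), p47phox-/- (blue) and WT (grey) libraries, from a y axis that starts at 0, with mean ± SD in black. Ndufb3, Atp5pb, Atp5c1 and Sdhd were highest in all 3 gp91phox-/- libraries, Ndufb4 and Atp5k were high in p47phox-/- replicate 2, and Atp5a1 was level.

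In p47phox-/- macrophages the members also lay above WT by their median, but no member was called and 1 library carried most of the shift. Of 79 members, 67 had a log2 fold change above 0, with a median of 0.24, against 47.4% of all tested genes and a median of -0.023. With limma 0 members were called in either direction at an adjusted p under 0.05, and the lowest adjusted p was 0.132. DESeq2 called 1 (Ndufb4), against 344 higher over all tested genes, and edgeR 0. In limma, an unadjusted p under 0.05 was reached by 14 of 79 members and by 2164 of 14404 tested genes. Of all tested genes, 0.625% were called higher and 0.5% lower. All 3 p47phox-/- libraries lay above all WT libraries for 10 members (12.7%, against 9.25% of all tested genes), and 0 members lay wholly below, against 8.49%. Both comparisons with WT use the same 3 WT libraries, so their values are not independent of each other. Median log2 fold changes were 0.28 for complex I, 0.02 for complex II, 0.25 for complex III, 0.26 for complex IV and 0.22 for complex V.

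The spread between the p47phox-/- libraries was wide. The median deviation of the members from the WT mean was 0.02, 0.53 and 0.16 on the log2 scale in p47phox-/- replicates 1, 2 and 3, against 0.13, 0.34 and 0.33 in the gp91phox-/- libraries and 0.03, 0.13 and -0.14 in the WT libraries. Replicate 2 of p47phox-/- was the highest of the 9 libraries for 53 of the 79 members, and WT replicate 3 was the lowest for 44. Without p47phox-/- replicate 2 the median log2 fold change of p47phox-/- versus WT was 0.09, with 59 members above 0. Without replicates 2 and 3 it was 0.02, with 45 above 0.

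**Figure D4:**
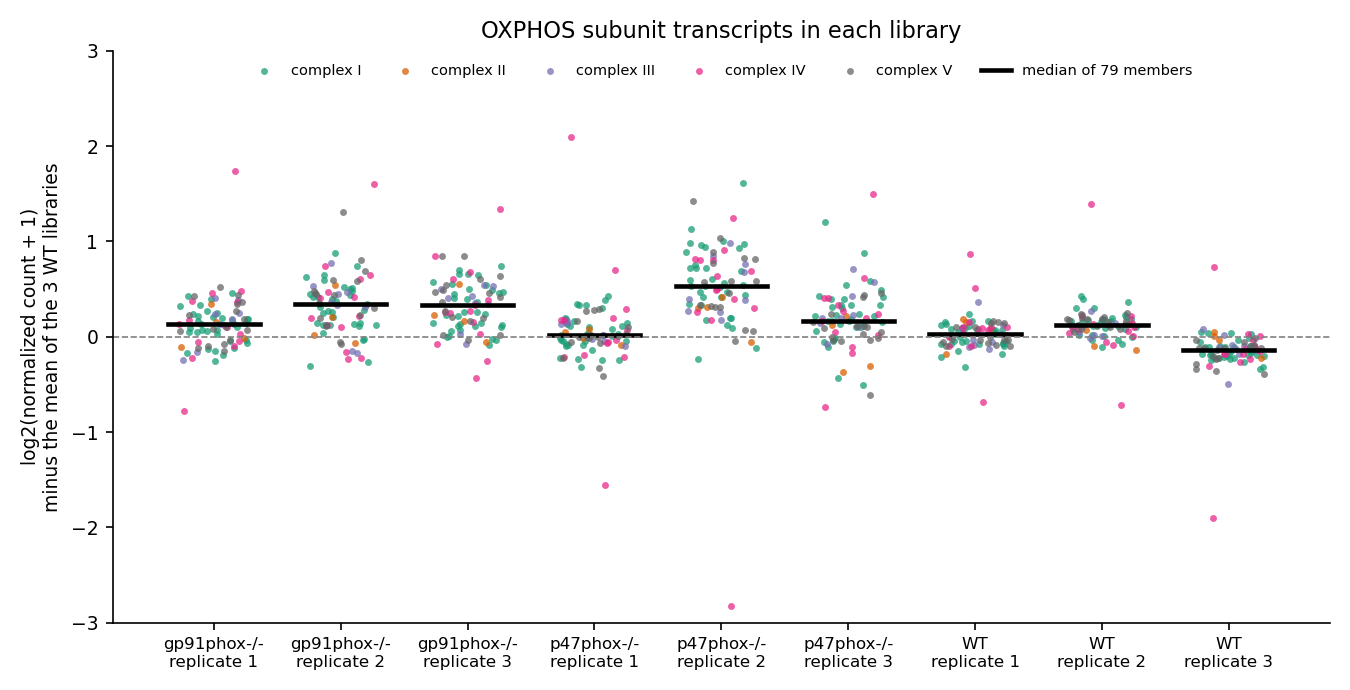
Deviation of each member in each library from the mean of the 3 WT libraries (log2 of normalized count + 1), coloured by complex, with the median of the 79 members as a black line. The medians are 0.13, 0.34 and 0.33 in gp91phox-/-, 0.02, 0.53 and 0.16 in p47phox-/- and 0.03, 0.13 and -0.14 in WT libraries.

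The members named next were highest in replicate 2 of p47phox-/-. Not all members were: 3 had their lowest value of the 9 libraries there, among them Ndufa4 (837 normalized counts) and Ndufs1 (1030). Ndufb4 had the largest fold change, with 188, 427.3 and 323 normalized counts in p47phox-/- libraries and 111.9, 188 and 128.9 in WT libraries (log2 fold change 1.08 ± 0.32, SE, limma adjusted p = 0.132). The lowest p47phox-/- library and the highest WT library were almost level. Atp5k, the small subunit e of the membrane part of ATP synthase, had 395.3, 883.6 and 438.2 normalized counts in p47phox-/- libraries, against 352.2, 386.2 and 259.7 in WT libraries (0.70, adjusted p = 0.275). Uqcr11, the smallest subunit of complex III, had 759.6, 1344 and 1013 against 875.9, 743.8 and 481 (0.57, adjusted p = 0.293). In both, replicate 2 was the highest of the p47phox-/- libraries. Cox4i2 had the highest fold change of complex IV at counts of 48.7, 71.2 and 45.7 in p47phox-/- and 54.7, 17.6 and 26.5 in WT libraries (0.85, adjusted p = 0.438).

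Sdha, Atp5a1 and Atp5b overlapped with WT in p47phox-/- libraries too. Sdha had 5790, 5615 and 6360 normalized counts against 5150, 6384 and 6015 in WT libraries (0.02, adjusted p = 0.953), and Atp5a1 12723, 12806 and 13115 against 12913, 14696 and 12135 (-0.04, adjusted p = 0.915). Atp5b had 16500, 17368 and 18294 in p47phox-/- libraries, against 15430, 18701 and 15523 in WT libraries (0.08, adjusted p = 0.822). Log2 fold changes of other named members were -0.02 for Ndufs1, 0.13 for Ndufv1, -0.02 for Sdhb, 0.02 for Sdhd, 0.13 for Uqcrc1, 0.18 for Uqcrfs1, 0.09 for Cyc1, 0.28 for Cox4i1 and -0.04 for Cox5a, all with adjusted p of 0.457 or above. Ndufv2 had a log2 fold change of 0.31 (adjusted p = 0.486). Lowest in their complexes were Ndufa10 (-0.06), Sdhb (-0.02), Uqcrb (0.08), Cox7a1 (-0.33) and Atp5md (-0.15), and Sdhc was highest in complex II (0.20). The 13 catalytic or redox-centre subunits had a median of 0.09 and the other 66 members 0.25.

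Transcript length went with these values. Among members under 700 bases (38 genes) the median log2 fold change was 0.31 in gp91phox-/- versus WT, among those of 700 to under 1200 bases (22) 0.32, of 1200 to under 2000 bases (14) 0.12 and of 2000 bases or more (5) -0.04. Other tested genes of the same 4 classes had medians of 0.04, 0.14, 0.01 and -0.02, so short members lay above other short genes in this comparison. In p47phox-/- versus WT the members' medians were 0.31, 0.24, 0.13 and -0.02, and those of the other genes 0.12, 0.17, 0.07 and -0.08. There too the members lay above other genes of their length by these medians, but not in every library. In p47phox-/- replicate 2 genes under 700 bases that are no members deviated from the WT mean by a median of 0.46, against 0.74 for members of that length. For p47phox-/- replicates 1 and 3 these values were 0.08 and 0.09 for other genes and 0.03 and 0.22 for members. In gp91phox-/- replicates 2 and 3 the same values were 0.09 and 0.08 for other genes and 0.39 and 0.41 for members. Spearman's correlation of fold change with length over the 79 members was -0.21 in gp91phox-/- versus WT and -0.35 in p47phox-/- versus WT, against -0.06 and -0.20 over the 13652 tested genes with a length. In gp91phox-/- versus p47phox-/- it was -0.01 over the members and 0.11 over those genes. These are descriptions over genes that share all libraries. The part of length in the results was not tested.

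**Figure D5:**
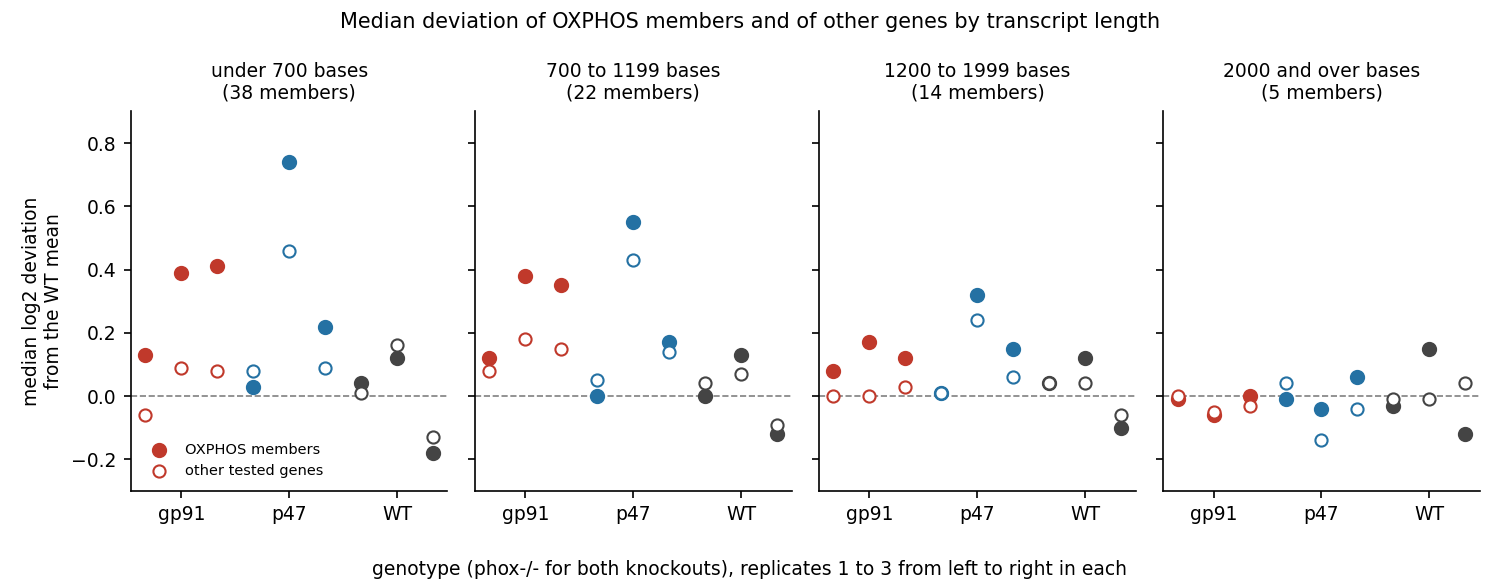
Median log2 deviation from the WT mean in each library for members (filled) and other tested genes (open) in 4 classes of transcript length, with gp91phox-/- in red, p47phox-/- in blue and WT in grey, replicates 1 to 3 from left to right. Under 700 bases, p47phox-/- replicate 2 is at 0.74 for members and 0.46 for other genes. In that class, gp91phox-/- replicates 1, 2 and 3 are at 0.13, 0.39 and 0.41 for members and -0.06, 0.09 and 0.08 for other genes.

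Between the knockouts the members were balanced. In gp91phox-/- versus p47phox-/-, 39 of 79 members had a log2 fold change above 0, with a median of -0.005 against 0.019 over all tested genes. This comparison is also the test of whether the 2 knockouts' effects differ, and limma called 0 members, whereas 3.97% of tested genes were higher and 5.96% lower. In limma, an unadjusted p under 0.05 was reached by 9 of 79 members and by 3740 of 14404 tested genes, and the lowest adjusted p was 0.0763. DESeq2 called 3 members higher, against 1092 of all tested genes, and edgeR 0, against 609. Libraries did not overlap for 4 members with gp91phox-/- above (5.06%, against 13.6% of tested genes) and 4 with it below (5.06%, against 17.3%). Those above were Ndufb3 (0.46, adjusted p = 0.0785), Sdhd (0.46, adjusted p = 0.0857), Atp5c1 (0.32, adjusted p = 0.141) and Atp5pb (0.41, adjusted p = 0.0763). Those below were Atp5k (-0.65, adjusted p = 0.177), Cox7c (-0.42, adjusted p = 0.129), Cox6a1 (-0.38, adjusted p = 0.128) and Ndufs7 (-0.32, adjusted p = 0.283). Cox6a1 had 2805, 2931 and 3102 normalized counts in gp91phox-/- libraries against 3158, 4628 and 3873 in p47phox-/- libraries. Highest and lowest in complex III were Uqcrb (0.21) and Cyc1 (-0.24). Sdha (-0.06) was at the low end of complex II and Ndufb4 (-0.43) at that of complex I. Cox6a2 (1.31 at near-zero counts) was highest in complex IV and Atp5md (0.47) in complex V. Without p47phox-/- replicate 2 the median was 0.13, so the balance depends on that library. There, 5 members were called higher, as were 532 of all tested genes, against 572 with all libraries.

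Forms of complex IV subunits known from particular tissues were scarce beside their common partners. Of the sum of Cox4i1 and Cox4i2 per transcript length, Cox4i2, the form known from lung and from oxygen sensing, made up 0.552 to 0.613% in gp91phox-/- libraries, 0.664 to 0.808% in p47phox-/- libraries and 0.279 to 0.889% in WT libraries. Cox6a2, the heart and muscle form, made up 0.458 to 0.676%, 0 to 0.775% and 0.0265 to 0.425% of its pair with Cox6a1 in the 3 genotypes in the same order. It was the member nearest to the level filter, with at least 10 normalized counts in 6 libraries: 22.7, 20.5 and 17 in gp91phox-/-, 29.4, 0 and 19.1 in p47phox-/- and 9.1, 17.6 and 0.9 in WT libraries. Its log2 fold changes of 1.56 in gp91phox-/- and 0.25 in p47phox-/- versus WT (adjusted p of 0.545 and 0.948) rest on these few counts. Cox7a1, another heart and muscle form, made up 3.49 to 6.06%, 2.28 to 9.31% and 4.82 to 15.6% of its pair with Cox7a2 in gp91phox-/-, p47phox-/- and WT libraries. Cox6b2, known from testis, made up 3.3 to 4.11%, 3.33 to 7.13% and 6.27 to 8.45% of its pair with Cox6b1. It had 58.2, 86.3 and 84.1 normalized counts in gp91phox-/- libraries against 106.1, 94.7 and 101.5 in WT libraries (-0.42, adjusted p = 0.567). Ndufa4l2, known as a hypoxia-induced relative of Ndufa4, reached 10 normalized counts in only 2 libraries and missed the filter, with a highest value of 19.3. The 6 genes listed for heart and muscle tissue (Actn2, Myh6, Myh7, Ckm, Mb and Tnnt2) summed to 12.7 to 36.2, 0 to 10.9 and 0 to 39.8 normalized counts in gp91phox-/-, p47phox-/- and WT libraries, and none was tested.

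Atp5g1, Atp5g2 and Atp5g3 encode the same mature subunit c, the ring that turns in the membrane. Atp5g1 made up 14.9, 11.7 and 17.1% of their sum per transcript length in gp91phox-/- libraries, 17.7, 23.6 and 14.3% in p47phox-/- libraries and 19.9, 19 and 15.4% in WT libraries. In the 8 libraries other than gp91phox-/- replicate 2, Atp5g2 made up 39.9 to 47.7% and Atp5g3 36.6 to 42.1%. In gp91phox-/- replicate 2, Atp5g3 had 7028 normalized counts and 58.5% of the sum, against 2967 and 3646 normalized counts in the other gp91phox-/- libraries and 2702, 3215 and 2600 in WT libraries. Its fold change of 0.58 in gp91phox-/- versus WT (SE 0.25, limma adjusted p = 0.193) rests on that library. Log2 fold changes in gp91phox-/- and p47phox-/- versus WT were 0.06 and 0.26 for Atp5g1 and 0.24 and 0.24 for Atp5g2, and none was called.

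Genes around the complexes were read from lists of their own. Of 47 tested assembly factors, the proteins that build the complexes without staying in them, 0 were called in either knockout versus WT, with median log2 fold changes of 0.10 in gp91phox-/- and -0.01 in p47phox-/-. In gp91phox-/- versus p47phox-/-, Atpaf1 (1.17, adjusted p = 0.0177) and Coa5 (0.66, adjusted p = 0.0353) were higher and Cox20 (-0.59, adjusted p = 0.042) lower. Over all tested genes, 3.97% were called higher and 5.96% lower in that comparison. These calls were lost in 3, 10 and 15 of 23 alternatives. Of 5 tested parts that the naming rule leaves out (Ndufab1, Cycs, Atpif1, Higd1a and Higd2a), 0 were called in any comparison. Of 18 regulators of mitochondrial biogenesis, 0 were called in p47phox-/- versus WT and 2 fell in gp91phox-/- versus WT, where 4.53% of all tested genes were called lower. These were Tfam, the factor that packages mitochondrial DNA and helps start its transcription, and Polg2, the accessory subunit of the mitochondrial DNA polymerase. Tfam had 332.1, 259.4 and 356.9 normalized counts in gp91phox-/- libraries, 481.8, 538.9 and 403.9 in p47phox-/- and 501.3, 674.8 and 538.6 in WT libraries, a log2 fold change of -0.85 ± 0.20 versus WT (SE, limma adjusted p = 0.024). Polg2 had 189.3, 118.3 and 113.6 in gp91phox-/- libraries against 311.6, 291.5 and 294.4 in WT libraries (-1.13, adjusted p = 0.0201). For Tfam the call was lost without gp91phox-/- replicate 1 or 2 or WT replicate 2 or 3 (adjusted p of 0.0508 to 0.122), and for Polg2 without gp91phox-/- replicate 2 or 3 or any 1 of the WT replicates (0.0595 to 0.0986). In gp91phox-/- versus p47phox-/-, Polg2 (-0.95, adjusted p = 0.0368) and the coactivator Pprc1 (-0.59, adjusted p = 0.0227) were lower, calls that were lost in 13 and 6 of 23 alternatives. Nrf1 and Gabpa themselves had log2 fold changes of -0.03 and 0.15 in gp91phox-/- and -0.27 and -0.03 in p47phox-/- versus WT (adjusted p of 0.561 or above).

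Of all tested genes, 2.53% were called higher and 4.53% lower in gp91phox-/- versus WT, and 0.625% and 0.5% in p47phox-/- versus WT. In gp91phox-/- versus p47phox-/- the shares were 3.97% higher and 5.96% lower. Of 18 tested genes of the tricarboxylic acid cycle and pyruvate entry, 1 rose in gp91phox-/- versus WT and 0 were called in the other comparisons. It was Fh1, fumarase, with 1587, 1566 and 1315 normalized counts in gp91phox-/- libraries against 909.9, 1004 and 1046 in WT libraries (0.59, adjusted p = 0.026), a call that was lost without gp91phox-/- replicate 1 or 2 or any 1 of the WT replicates (adjusted p of 0.0557 to 0.118). Of 15 tested glycolytic genes, 0 were called in either knockout versus WT, and the glucose transporter Slc2a1 was higher in gp91phox-/- than in p47phox-/- libraries (0.82, adjusted p = 0.00693, lost in 1 of 23 alternatives). Of the 17 macrophage markers, Fcgr1 rose in gp91phox-/- versus WT (0.65) and Cd163 in p47phox-/- versus WT (0.99), while Cx3cr1, Itgam and Fcgr1 were higher and Cd68 lower in gp91phox-/- versus p47phox-/-. Beside these, 11 of 12 B cell, 3 of 7 plasma cell, 4 of 9 conventional dendritic cell and 1 of 8 tested T cell and innate lymphoid markers fell in gp91phox-/- versus WT, with 0 of each called in p47phox-/- versus WT. Fibroblast and smooth muscle markers rose in both, 2 of 14 in gp91phox-/- (Acta2 and Sparc) and 3 of 14 in p47phox-/- versus WT (Acta2, Sparc and Col3a1). In gp91phox-/- versus p47phox-/-, 12 of 12 B cell, 3 plasma cell, 5 dendritic cell, 2 lymphoid and 3 fibroblast markers were lower and 3 of 12 epithelial markers higher. Epithelial markers had 0 calls versus WT in either knockout, Pecam1 alone of 6 endothelial markers was lower in p47phox-/- versus WT, and 0 of 3 tested neutrophil and mast cell markers were called in any comparison.

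Of the 17 matched rows that missed the filter, 6 carried a numbered suffix (Ndufa7_1, Ndufa7_2, Ndufa7_3, Ndufs3_1, Uqcrc1_1 and Atp5a1_1) and were listed at 0 in every library. Ndufa1, Ndufb11 and Cox7b lie on the X chromosome and were listed at 0 with all its genes, which is no reading of their level. Cox7b2, Cox8b and Cox8c were at 0 as well. Ndufa11b, Ndufb4b, Ndufb4c and Ndufs5-ps reached at most 3.02, 3.58, 4.47 and 4.20 normalized counts. The subunits encoded in the mitochondrial genome could not be read: none of their 13 names matched a row, and the 24 mitochondrial genes in the table were all listed at 0. Many OXPHOS genes have near-identical processed pseudogenes, so reads may be shared between copies and the counts of such members are uncertain.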

How the data were processed

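RNA of 9 libraries (3 genotypes, 3 each) was sequenced as paired ends on a NovaSeq. Per the labels' protocols, RNA was purified with an RNeasy Micro kit and reads on genes were counted with featureCounts. Per the submitters' processing notes, the tools were bcl2fastq 2.19, Cutadapt, STAR 2.5.2b on mm10 and DESeq2. Strand and gene annotation are not given in the sources used here. In the deposited table each value is a signal, the reads of a gene divided by the library's size factor (a normalized count), and whole reads were recovered for 100% of values (tolerance 0.01).

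The 14404 genes at 10 or more normalized counts in 3 or more libraries were tested on log2(normalized count + 1) with limma 3.58.1 (R 4.3.3) in 1 fit of 3 groups with a mean-variance trend, with Benjamini-Hochberg adjustment over all of them and calls at an adjusted p under 0.05. Fold changes on this scale understate those of low genes. The test was checked on simulated data. Transcript lengths and places came from GENCODE M21 (13652 of 14404 tested genes, 94.8%), and promoter sequence from RefSeq (GRCm38.p6). Alternatives were count tests on the recovered reads (edgeR 4.0.16, DESeq2 1.42.0), other pseudocounts, filters, scalings and fits, and libraries left out.

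The members and lists were chosen with earlier results of these data known. Named were called members, the highest and lowest fold change of each complex and comparison, fixed core subunits and isoforms, and rows that missed the filter. Atp5c1, Atp5l, Ndufs7, Ndufv2 and the called genes of the lists were added once their values were known. Some of these results are not given here, though counts and medians include them.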

Additional observations from a re-analysis of the deposited data

How the results depend on the processing

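With limma in the fit of all 3 groups, 2 members were called higher in gp91phox-/- versus WT. Over all 14404 tested genes, 364 were called higher in that fit. The number of members was 0 without a mean-variance trend (178 of all tested genes), 1 with no filter (331 of 22038) and 1 with the replicate block (328). It was 10 with DESeq2 (757 of all tested genes), 11 with only the groups compared (585) and 16 with array weights (1001). When each library was left out in turn it was 0 to 11, against 150 to 622 of all tested genes. In p47phox-/- versus WT, where 0 were called, DESeq2 called 1 higher and leaving out a library gave 0 to 1. Over all tested genes, 90 were called higher in the main fit, 344 with DESeq2 and 25 to 101 with a library left out. In gp91phox-/- versus p47phox-/-, TMM scaling called 1 higher, array weights 3 and DESeq2 3, and leaving out a library gave 0 to 5 higher and 0 to 1 lower. Over all tested genes, higher calls numbered 572 in the main fit, 719 with TMM scaling, 620 with array weights and 1092 with DESeq2. Leaving out a library gave 242 to 863 higher and 519 to 847 lower over all tested genes, against 858 lower in the main fit. The cause was not tested. Median log2 fold changes of the members over libraries left out were 0.088 to 0.359 in p47phox-/- versus WT, 0.179 to 0.336 in gp91phox-/- versus WT and -0.091 to 0.127 in gp91phox-/- versus p47phox-/-, the last at 0.252 without p47phox-/- replicates 2 and 3 together. Same-numbered libraries of different groups did not deviate together (correlations of -0.04 to 0.076), so the numbers were not taken as pairs, and under the block Ndufb3 had an adjusted p of 0.0697 and Atp5pb 0.0446 in gp91phox-/- versus WT. Over 23 alternatives Ndufb3 lost its call in 7 and Atp5pb in 8.

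Uncalled values that changed sign were mostly those of p47phox-/- versus WT. Without p47phox-/- replicates 2 and 3 together they were 0 to 2 decimals for Atp5c1, -0.01 for Atp5g1, -0.06 for Atp5g2, -0.03 for Cox4i1, -0.05 for Cox6a1, -0.19 for Cox7a2l, -0.1 for Cyc1, -0.08 for Ndufv1, -0.09 for Ndufv2, -0.03 for Uqcrc1 and -0.05 for Uqcrfs1. Over libraries left out in turn, p47phox-/- versus WT ran from -0.02 to 0.4 for Atp5g1 and -0.07 to 0.27 for Cox7a2l, and Cox6a2 from -0.24 to 2.23 in gp91phox-/- versus p47phox-/-. Leaving out p47phox-/- replicates 2 and 3 together gave -0.54 for Cox6a2 and 0.22 for Ndufb4 in gp91phox-/- versus p47phox-/-. Atp5b was at -0.07 in gp91phox-/- versus WT under quantile normalization.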
